A study of Mus musculus with 14 samples.

Results

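Guidance genes encode secreted and membrane proteins that tell growing axons, vessels and epithelial buds which way to go. The present report follows 37 of them through mouse lung development. They comprise 11 semaphorins (Sema) and 6 plexin receptors (Plxn), 5 ephrins (Efn) and 7 Eph receptors, 2 Slits and 2 Robo receptors, and 2 netrins (Ntn) and 2 Unc5 receptors. They were chosen by gene symbol, with earlier results of these data known. Of the 37, 36 were found among the 18193 genes that the array annotation names with 1 symbol per probe set. Ephb2 was not found under its symbol and was not analysed here.

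Lungs of the outbred mouse strain ICR were dissected at embryonic days 12, 14, 16 and 18 (E12, E14, E16 and E18), at postnatal days 2 and 10 (P2 and P10), and at postnatal day 30 (Adult). All samples carried the label female, none was treated, and the RNA came from pooled whole lungs of each age. The methods name females only as the mice bred for timed pregnancies and do not give the sex of the animals whose lungs were taken. Messenger RNA was measured on 14 one-colour arrays of short oligonucleotides, with 2 arrays per time point at 7 time points. The series asks which transcripts move during lung organogenesis, and for the guidance genes the question was how ligands and receptors of each system ran through the same time course.

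Semaphorins signal through plexins, and the secreted class 3 semaphorins mostly do so with neuropilins as co-receptors. Ephrins are bound to the cell surface and signal on contact through Eph receptor tyrosine kinases, whereas Slits bind Robo receptors and netrins bind Dcc, neogenin and Unc5 receptors. The same proteins pattern blood vessels and branching epithelia outside the nervous system, and ephrin-B2 and EphB4 are textbook markers of arterial and venous endothelium.

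The deposited values were log2 intensities between 2.531 and 14.99, with array medians of 6.546 to 6.625. Where a gene had several probe sets, the one of highest average level stood for it. Each probe set has its own binding strength, so levels are compared between time points and not between genes. In 14 of 14 arrays the most similar array was the other replicate of the same time point, with replicate correlations of 0.9953 to 0.9977 across probe sets. Of the tissue markers, epithelial genes of the lung were well measured throughout, with mean levels of 9.43 to 11.82 in single arrays. E16 replicate 1 stood apart by heart muscle genes, with 12.63 for Myl2 and 10.46 for Nppa, against 8.84 and 5.55 in E16 replicate 2. The same array had 5.80 for the thymus gene Rag1, against 3.23 in E16 replicate 2. E12 replicate 2 stood apart by skeletal muscle genes, with a list mean of 6.28 against 5.44 in E12 replicate 1, and 5.87 against 4.49 for Myh3. Nerve and glia markers had list means of 5.68 to 6.42, with 2 of the 6 named markers, Stmn2 and Sox10, ever above 7. Stmn2, a gene of growing neurites, had 9.98 and 9.57 in Adult against 6.52 and 6.89 at E12.

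All 36 guidance genes reached a time-point mean above 7 (called Max above 7), as did 64.1% of all genes. A gene was called dynamic when the moderated F test of limma over the 7 time points gave an adjusted p under 0.05, Max was above 7 and its highest and lowest time-point mean differed by more than 1.2 (Range). This held for 23 of 36 guidance genes (63.9%), against 26.7% of all 18193 genes and 41.7% of the 11663 genes with Max above 7. Of 62 further guidance genes described below, 42 had Max above 7 and 20 were dynamic. Since the 37 genes were chosen with earlier results of these data known, their share cannot be read as a property of guidance genes in general. Among ligands 14 of 20 were dynamic, and among receptors 9 of 16. The dynamic genes comprised 9 whose means rose with the order of the time points (Pearson r of 0.8 or more), 5 that fell and 9 that did neither. Ligands made up 8 of the 9 rising genes by this measure, and receptors 4 of the 5 falling ones. A rising gene need not have risen at every step, since Sema3c, Sema6a, Plxna1 and Ntn4 each had a called fall between neighbouring ages. The shares of all genes that rose or fell by this measure were not computed. By adjusted p alone, 36 of 36 guidance genes changed, against 73.2% of all genes.

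**Figure D1:**
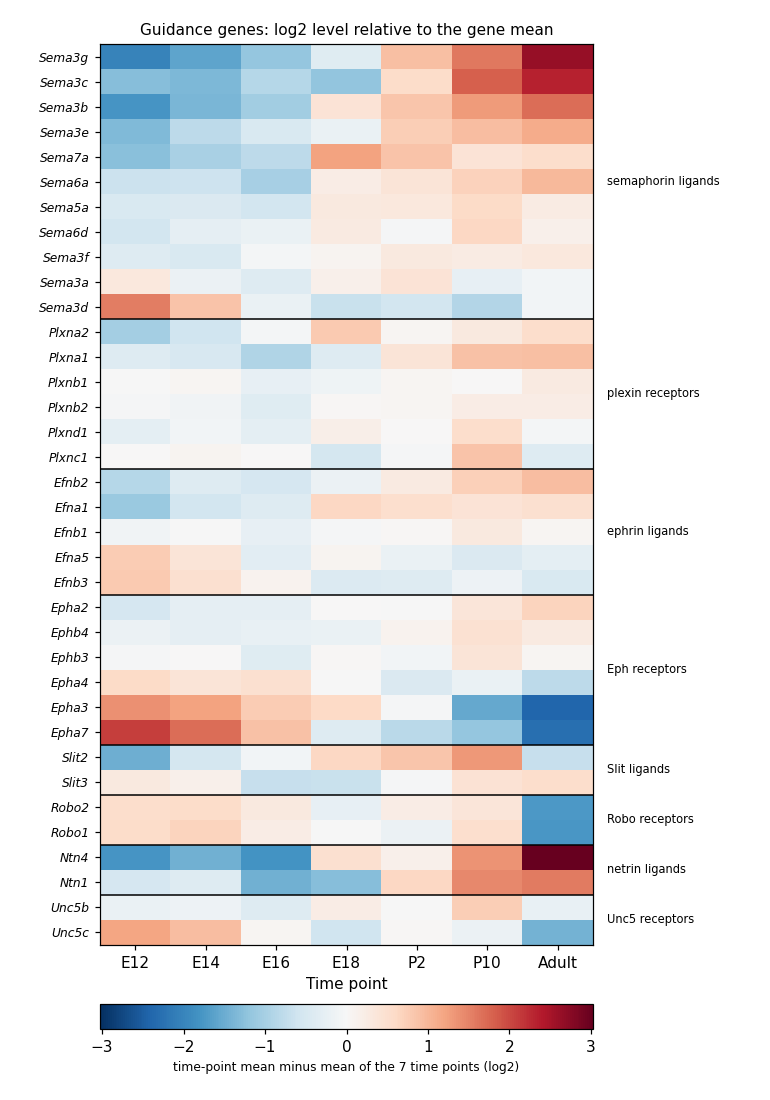
Heat map of the 36 guidance genes, grouped by family and ordered within a family by their Adult minus E12 difference. Each cell is the mean log2 value of the 2 arrays of a time point minus the mean of that gene over the 7 time points. Sema3g, Sema3c, Sema3b and Ntn4 turn from blue to red towards Adult, whereas Epha3, Epha7, Robo1 and Robo2 are bluest in Adult.

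The ends of the time course were compared first, Adult against E12, in 1 linear model with limma over all 14 arrays. Differences are on the log2 scale and carry a standard error (SE), and p is adjusted over all 45037 probe sets. Of the 36 guidance genes 18 were higher in Adult lungs and 11 were lower, whereas 7 did not pass (Plxnb1, Plxnb2, Plxnd1, Efnb1, Ephb3, Slit3 and Unc5b). The background was 65.2% called of all genes, with 35% higher and 30.2% lower. Among genes with Max above 7 it was 82%, with 39.5% higher and 42.5% lower, so the share of guidance genes that changed was near that of other well measured genes. The median difference was 0.37 over the guidance genes and 0.08 over all genes. Of the 20 ligands 14 were higher and 4 lower (70% and 20%), with a median difference of 1.2. Of the 16 receptors 4 were higher and 7 lower (25% and 43.8%), with a median of 0.03. When a change of more than 1.2 and a level over 7 on the higher side were also required, 12 guidance genes were higher and 8 lower. The share of all genes under that requirement was not computed.

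The tissue itself changed between the same ages, and in pooled whole lung fewer cells of a type and less RNA per cell cannot be told apart. Endothelial markers were higher in Adult for 8 of 8 genes, with list means of 11.35 and 11.46 in the Adult arrays against 8.79 and 8.74 at E12. Leukocyte markers were higher for 7 of 7 genes, with 9.92 in both Adult arrays against 6.50 and 6.47 at E12. Epithelial markers were higher for 6 of 8 genes and lower for 1, with 11.48 and 11.40 against 9.51 and 9.43. Mesenchymal markers were higher for 2 and lower for 3 of 8, with 11.35 and 11.26 against 11.53 and 11.41. Smooth muscle and pericyte markers were higher for 6 of 8, with 10.68 and 10.26 in Adult against 9.66 and 9.65 at E12. Heart muscle markers were higher for 7 of 11, with 8.50 and 8.57 against 6.17 and 6.29, and mesothelial markers for 3 of 5 and lower for 1, with 8.31 and 8.39 against 7.33 and 7.32. Nerve and glia markers were higher for 4 of 6 and lower for 1, whereas skeletal muscle markers were higher for 1 and lower for 3 of 6. Red blood cell markers were higher for 2 and lower for 3 of 5, with 6.64 and 5.95 against 9.39 and 9.45. In that list the globin gene Hbb-y had 4.24 and 3.69 in Adult against 14.31 and 14.24 at E12. Hba-x had 6.49 and 6.01 against 12.38 and 12.26, whereas Alas2 was higher, with 10.53 and 9.37 against 8.22 and 8.31. The list mean therefore does not measure the number of red blood cells. Genes of dividing cells were lower for 5 of 5, with 6.63 and 6.38 in Adult against 11.45 and 11.43 at E12. Without E12 replicate 2, the array with skeletal muscle signal, 18 guidance genes were higher and 10 lower. The part of these shifts in the guidance gene results was not tested.

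The largest differences of the family belonged to 2 ligands that were higher and 2 receptors that were lower in Adult, namely Ntn4, Sema3g, Epha7 and Epha3. Their promoters are printed here, together with that of Robo1, whose course is described further on, to show the sequence at the start of genes that ran in opposite directions. RefSeq entries of assembly GRCm38.p6 cover 250 bases before to 50 bases after each gene start, and 31 of the 37 genes had an entry, 5 of them several. No entry was used for Sema3b, Sema3f, Sema6a, Plxna1, Efnb3 and Ntn1. Capitals mark the GC box, GGGCGG or its reverse complement CCGCCC, searched on both strands with overlapping matches counted.
Ntn4 (chr10:93640799-93641098, plus strand, 4 GC boxes): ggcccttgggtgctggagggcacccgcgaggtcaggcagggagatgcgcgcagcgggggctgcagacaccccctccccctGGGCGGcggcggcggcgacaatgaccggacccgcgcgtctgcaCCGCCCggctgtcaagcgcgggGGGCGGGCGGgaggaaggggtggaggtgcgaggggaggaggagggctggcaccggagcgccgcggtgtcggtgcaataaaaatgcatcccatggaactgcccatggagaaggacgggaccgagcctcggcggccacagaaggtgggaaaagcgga
Sema3g (chr14:31217623-31217922, plus strand, 1 GC box): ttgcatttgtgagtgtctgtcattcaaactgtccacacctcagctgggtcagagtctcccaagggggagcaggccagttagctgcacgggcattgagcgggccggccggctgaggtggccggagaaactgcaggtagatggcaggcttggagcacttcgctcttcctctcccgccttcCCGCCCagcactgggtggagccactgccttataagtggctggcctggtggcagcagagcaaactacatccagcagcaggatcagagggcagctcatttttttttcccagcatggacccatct
Epha7 (chr4:28812881-28813180, plus strand, 1 GC box, first of 2 entries): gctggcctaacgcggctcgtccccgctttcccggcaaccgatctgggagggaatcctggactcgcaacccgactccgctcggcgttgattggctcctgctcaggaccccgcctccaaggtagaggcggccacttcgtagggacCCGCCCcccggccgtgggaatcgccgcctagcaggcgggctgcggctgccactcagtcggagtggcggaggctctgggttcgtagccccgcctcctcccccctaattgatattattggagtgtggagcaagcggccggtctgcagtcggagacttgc
Epha3 (chr16:63864126-63864425, minus strand, 0 GC boxes): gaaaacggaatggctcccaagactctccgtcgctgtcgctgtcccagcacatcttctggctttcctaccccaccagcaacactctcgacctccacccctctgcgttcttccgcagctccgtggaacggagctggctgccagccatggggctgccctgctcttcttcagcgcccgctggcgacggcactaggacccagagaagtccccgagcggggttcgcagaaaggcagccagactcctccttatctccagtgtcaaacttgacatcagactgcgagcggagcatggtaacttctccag
Robo1 (chr16:72662899-72663198, plus strand, 0 GC boxes): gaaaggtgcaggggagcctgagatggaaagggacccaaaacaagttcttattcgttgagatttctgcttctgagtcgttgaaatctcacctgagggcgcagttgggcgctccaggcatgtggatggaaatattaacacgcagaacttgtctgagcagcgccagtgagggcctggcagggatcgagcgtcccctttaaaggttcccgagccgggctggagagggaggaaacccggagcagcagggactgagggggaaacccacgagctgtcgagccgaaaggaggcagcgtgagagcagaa

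At least 1 GC box lay in the promoters of 13 of the 13 guidance genes with an entry that were higher in Adult, of 4 of the 10 that were lower, and of 6 of the 7 that were not called. The box is found in 35.7% of all 32851 promoters of this length. Over genes with Max above 7 it was found in 68.6% of those higher in Adult, 69.1% of those lower and 70.7% of those not called. None of the entries of Epha3, Robo1, Robo2, Unc5c, Sema3a and Sema3d held these letters. The CCAAT box (CCAAT or ATTGG) was found in 2 of 13, 3 of 10 and 1 of 7 guidance genes, and in 37.4% of all promoters. The TATA box (TATAAA or TTTATA) was found in 2 of 13, 0 of 10 and 0 of 7, and in 13.6% of all promoters. These are matches of letters within the window and were not tested further.

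Most semaphorin ligands were higher at the end of the course. In Adult against E12, 9 of 11 semaphorins were higher and 2 lower (81.8% and 18.2%), with a median difference of 1.62. Sema3g, a class 3 semaphorin known from arterial endothelium, had 6.21 and 6.44 at E12, 6.64 and 6.88 at E14, 7.18 and 7.20 at E16, and 8.19 and 7.80 at E18. After birth Sema3g had 9.24 and 9.29 at P2, 9.81 and 10.08 at P10, and 11.03 and 10.93 in Adult. Its lowest array of each age from E14 on lay above the highest array of the age before. The difference of Sema3g was 4.66 ± 0.14 (SE, adjusted p = 6.35e-12), or 25.3-fold, and its steps at P2 (1.27 ± 0.14, adjusted p = 4.51e-05) and Adult (1.03 ± 0.14, adjusted p = 8.54e-05) were the largest.

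Sema3c, which guides outflow tract and vessel growth through Plxnd1, moved little before birth and rose after it. Its arrays read 9.25 and 9.27 at E12, 9.14 and 9.24 at E14, 9.70 and 9.67 at E16, and 9.35 and 9.35 at E18. Postnatal arrays read 11.14 and 11.08 at P2, 12.31 and 12.41 at P10, and 12.78 and 12.94 in Adult. Every postnatal array was above every prenatal array. Sema3c was 3.60 ± 0.09 higher in Adult than at E12 (adjusted p = 1.51e-12, 12.1-fold), with steps of 1.76 ± 0.09 at P2, 1.25 ± 0.09 at P10 and 0.50 ± 0.09 in Adult (adjusted p = 6.14e-08, 4.11e-06 and 0.000747). Before birth a rise of 0.50 ± 0.09 at E16 and a fall of 0.34 ± 0.09 at E18 also passed (adjusted p = 0.00182 and 0.00745).

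Sema3b, a class 3 semaphorin known as a candidate tumour suppressor of human lung cancer, made its main step before birth. It had 5.90 and 5.84 at E12, 6.31 and 6.25 at E14, 6.62 and 6.60 at E16, 8.07 and 8.08 at E18, 8.43 and 8.57 at P2, 9.04 and 8.87 at P10, and 9.25 and 9.47 in Adult. The replicates of no 2 neighbouring ages overlapped. Its Adult minus E12 difference was 3.49 ± 0.10 (adjusted p = 4.28e-12, 11.2-fold), and the step at E18 alone was 1.47 ± 0.10 (adjusted p = 7.78e-08). Sema3e, the ligand of Plxnd1 in vessel patterning, was 2.45 ± 0.13 higher (adjusted p = 9.63e-10), with its largest step at P2 (0.94 ± 0.13, adjusted p = 0.000237).

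Sema7a, a membrane-anchored semaphorin whose receptors are Plxnc1 and integrins, peaked at E18. Its values were 6.68 and 6.76 at E12, 6.96 and 7.06 at E14, 7.15 and 7.23 at E16, and 9.25 and 9.17 at E18. It then had 8.96 and 8.75 at P2, 8.31 and 8.51 at P10, and 8.60 and 8.42 in Adult. The arrays from E18 on were all above those up to E16. Its step at E18 was 2.02 ± 0.11 (adjusted p = 7.66e-09), the largest step of the 11 semaphorins, followed by falls of 0.36 ± 0.11 at P2 and 0.44 ± 0.11 at P10 (adjusted p = 0.038 and 0.0228), and Adult was 1.79 ± 0.11 above E12 (adjusted p = 4.12e-09).

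Sema6a, a transmembrane semaphorin that binds Plxna2 and Plxna4, had its largest step at E18 as well (1.25 ± 0.09, adjusted p = 2.24e-07) and was 1.62 ± 0.09 higher in Adult than at E12 (adjusted p = 3.53e-09). One of its other 2 probe sets gave 0.20 and was not called, and the other gave 0.57. Sema5a and Sema6d, both transmembrane, were 0.72 ± 0.18 and 0.72 ± 0.12 higher, and the call of Sema5a was lost when all its probe sets were averaged (0.27, adjusted p = 0.0508). Sema3f, which acts through Nrp2, was 0.69 ± 0.13 higher (adjusted p = 0.000371) on the probe set that stood for the gene, but its other 2 probe sets gave 1.81 and 2.04.

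The class 3 semaphorins that were lower in Adult were Sema3d and Sema3a. Sema3d had 9.21 and 9.27 at E12, 8.60 and 8.53 at E14, 7.40 and 7.61 at E16, 6.93 and 7.11 at E18, 7.21 and 7.08 at P2, 6.65 and 6.96 at P10, and 7.66 and 7.59 in Adult. No later fall passed after E18, and both Adult arrays were above those of P10 (0.82 ± 0.12, adjusted p = 0.000126). Sema3d was 1.61 ± 0.12 below its E12 level in Adult (adjusted p = 3.13e-08), a 3.05-fold difference. Sema3a, the prototype axon repellent that binds Nrp1, had 9.26 and 9.54 in Adult and 9.68 and 9.93 at E12. Its difference of -0.40 ± 0.13 (adjusted p = 0.0148) lost its call without E12 replicate 2 (-0.27, adjusted p = 0.144), without Adult replicate 1 (-0.26, adjusted p = 0.157) and after quantile normalization (-0.27, adjusted p = 0.0771). The other 2 Sema3a probe sets were also called lower in Adult (-1.04 and -0.34). Sema3d, Sema3a, Sema3e and Sema3c lie in this order on mouse chromosome 5, among 22 protein-coding genes from the first to the last. The adjacent Sema3d and Sema3a were both lower in Adult, whereas Sema3e and Sema3c, further along, were higher.

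**Figure D2:**
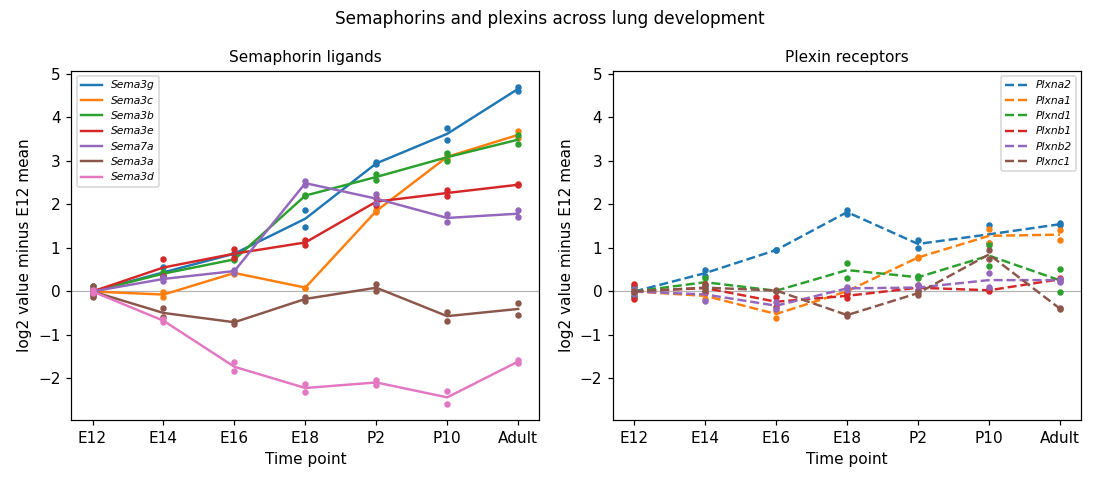
Courses of 7 semaphorins (left) and 6 plexins (right), as log2 value minus the E12 mean of the same gene. Points are single arrays and lines join time-point means. Sema3g ends 4.66 above E12 and Sema3d 1.61 below it, whereas the plexins stay within a narrower band.

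The plexins, receptors of the semaphorins, moved less than their ligands. Of 6 plexins 2 were higher in Adult and 1 lower, with a median difference of 0.27, and 3 of 6 were dynamic. Plxna2, a receptor of class 3 and class 6 semaphorins, had 7.08 and 7.33 at E12, 7.71 and 7.55 at E14, 8.15 and 8.17 at E16, 9.08 and 8.98 at E18, 8.39 and 8.21 at P2, 8.32 and 8.72 at P10, and 8.73 and 8.78 in Adult. The E18 arrays were above all others, and those of E12 below all others. Plxna2 was 1.55 ± 0.13 higher in Adult than at E12 (adjusted p = 1.81e-07), with a step of 0.87 ± 0.13 at E18 and of -0.73 ± 0.13 at P2 (adjusted p = 0.000122 and 0.00213).

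Plxna1, which pairs with Nrp1 as a receptor of Sema3a, had 9.62 and 9.85 in Adult and 8.46 and 8.41 at E12, a difference of 1.31 ± 0.12 (adjusted p = 3.58e-07). Its main step was at P2 (0.78 ± 0.12, adjusted p = 0.00065). Plxnc1, the receptor of Sema7a and known from leukocytes and neurons, lay between 9.40 and 9.55 at E12, E14 and E16, at 8.84 and 8.88 at E18, 9.40 and 9.34 at P2, 10.15 and 10.37 at P10, and 9.0 and 9.03 in Adult. Both P10 arrays were above all others. Plxnc1 fell by 0.56 ± 0.09 at E18 and rose by 0.50 ± 0.09 at P2 (adjusted p = 0.000256 and 0.00247). It then rose by 0.89 ± 0.09 at P10 and fell by 1.25 ± 0.09 in Adult (adjusted p = 8.64e-05 and 4.93e-07), which left it 0.39 ± 0.09 below E12 (adjusted p = 0.00221). Of the leukocyte markers 6 of 7 were higher in Adult than at P10, and their part in the course of Plxnc1 was not tested.

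Plxnd1, the receptor of Sema3e and of Sema3c with a neuropilin, had 9.37 and 9.90 in Adult and 9.28 and 9.48 at E12. The 0.26 ± 0.18 difference did not pass (adjusted p = 0.246), and it reached 0.52 without Adult replicate 1 (adjusted p = 0.0338) and -0.01 without Adult replicate 2. Plxnb1 and Plxnb2, receptors of class 4 semaphorins, differed by 0.28 ± 0.12 and 0.26 ± 0.13 (adjusted p = 0.0664 and 0.0927). Both passed after quantile normalization (0.41 and 0.38), and Plxnb1 also without E12 replicate 1 (0.46, adjusted p = 0.00988).

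Ephrins and Eph receptors held both the steepest falls and several genes that hardly moved. In Adult against E12, 2 of 5 ephrins were higher and 2 lower, and 2 of 6 Eph receptors were higher and 3 lower. Efna1, a ligand of EphA receptors induced by inflammatory cytokines in endothelium, had 7.87 and 8.13 at E12, 8.61 and 8.53 at E14, 8.79 and 8.69 at E16, 9.84 and 9.64 at E18, and 9.48 to 9.69 in single arrays after birth. It rose by 1.01 ± 0.11 at E18 (adjusted p = 7.06e-06) and had no called step after birth, 1.62 ± 0.11 above E12 in Adult (adjusted p = 1.84e-08). Efnb2, the arterial ephrin, had 9.67 and 9.32 at E12, 10.01 and 9.92 at E14, 9.83 in both E16 arrays, 10.42 and 9.93 at E18, 10.57 and 10.67 at P2, 10.90 and 11.23 at P10, and 11.17 and 11.37 in Adult. No single step of Efnb2 passed, yet Adult was 1.78 ± 0.16 above E12 (adjusted p = 3.55e-07, 3.43-fold). The postnatal arrays of Efnb2 all lay above the prenatal ones.

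Efna5, a GPI-anchored ligand that repels retinal axons, was 1.08 ± 0.15 lower in Adult (adjusted p = 2.37e-05), with 7.52 and 7.64 in Adult against 8.65 and 8.67 at E12. Its fall at E16 (-0.73 ± 0.15, adjusted p = 0.00458) was lost without E14 replicate 1 (-0.47, adjusted p = 0.0649). Efnb3, the midline ephrin of the spinal cord, was 1.27 ± 0.14 lower (adjusted p = 2.99e-06), with 6.62 and 7.14 in Adult against 8.08 and 8.22 at E12. Efnb1, a transmembrane ephrin needed in craniofacial development, differed by 0.17 ± 0.12 (adjusted p = 0.237) and passed after quantile normalization only (0.28, adjusted p = 0.0479).

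Epha7, an Eph receptor best known from the developing nervous system, was lower at each age than at the one before, although not every step passed. It had 10.23 and 10.12 at E12, 9.77 in both E14 arrays, 8.82 and 9.09 at E16, 7.82 and 7.55 at E18, 7.30 and 7.20 at P2, 6.81 and 6.99 at P10, and 6.0 and 5.61 in Adult. The replicates of neighbouring ages never overlapped, and the difference of -4.37 ± 0.14 (adjusted p = 1.17e-11) made E12 20.7-fold higher than Adult. The steps at E16 (-0.82 ± 0.14), E18 (-1.27 ± 0.14) and Adult (-1.10 ± 0.14) passed (adjusted p = 0.00142, 7.41e-06 and 5.5e-05), whereas those at E14 (-0.40), P2 (-0.44) and P10 (-0.35) did not (adjusted p = 0.172, 0.0536 and 0.183). On the probe set with the largest variance the last step was -0.37 and was not called (adjusted p = 0.0618). The 3 other Epha7 probe sets gave Adult minus E12 differences of -2.92, -4.02 and -2.69.

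Epha3, a receptor of ephrin-A ligands studied in heart cushion and mesenchymal cells, made its larger falls after birth. Its values were 11.14 and 11.24 at E12, 11.08 and 10.99 at E14, 10.50 and 10.64 at E16, 10.27 and 10.56 at E18, 9.80 and 9.76 at P2, 8.20 and 8.33 at P10, and 7.44 and 7.40 in Adult. Prenatal arrays were at 10.27 or more, with a fall of 0.46 ± 0.11 at E16 (adjusted p = 0.00934), and each postnatal age lay below the one before it. The steps at P2, P10 and Adult were -0.64 ± 0.11, -1.51 ± 0.11 and -0.84 ± 0.11 (adjusted p = 0.00123, 4.03e-06 and 5.23e-05). Over the whole course Epha3 was 3.77 ± 0.11 lower (adjusted p = 4.25e-12, 13.6-fold), and its 3 other probe sets gave -4.04 to -4.24. The printed promoters of these receptors hold 1 GC box (Epha7) and 0 (Epha3).

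Epha4, a receptor for both ephrin classes, was 1.38 ± 0.12 lower (adjusted p = 1.36e-07), with 7.55 and 7.64 in Adult against 8.83 and 9.13 at E12. Epha2, an epithelial Eph receptor, went the other way and was 1.19 ± 0.10 higher (adjusted p = 1.74e-07), with 8.99 and 8.79 in Adult against 7.62 and 7.78 at E12. Ephb4, the venous partner of Efnb2, was 0.45 ± 0.11 higher (adjusted p = 0.00336), with 9.36 and 9.38 in Adult against 8.92 and 8.91 at E12. Ephb3, a receptor of ephrin-B ligands in gut epithelium, differed by 0.09 ± 0.11 (adjusted p = 0.522), with values between 8.51 and 9.42 in all arrays.

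**Figure D3:**
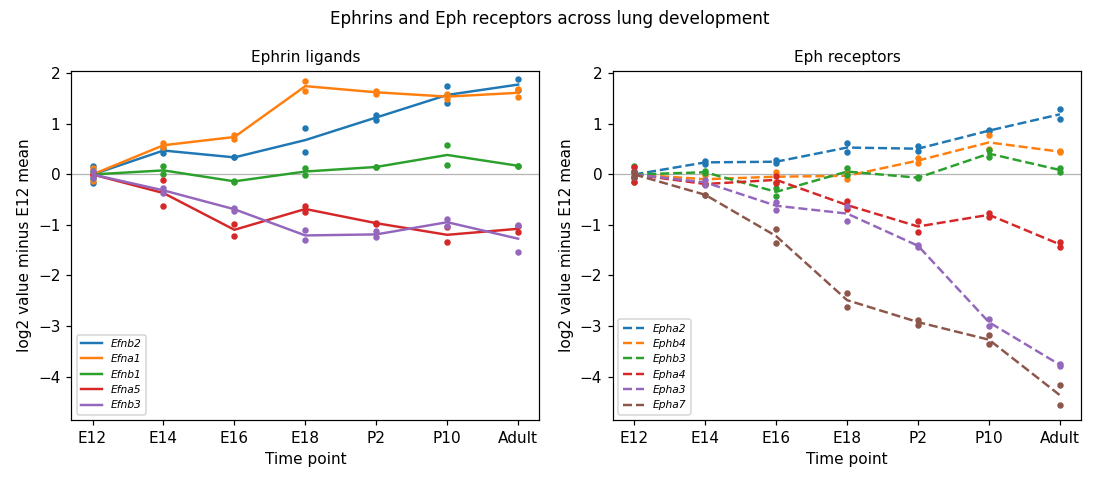
Courses of the 5 ephrins (left) and 6 Eph receptors (right), as log2 value minus the E12 mean of the same gene. Points are single arrays and lines join time-point means. Epha7 ends 4.37 below E12 and Epha3 3.77 below it, whereas Efnb2 ends 1.78 above and Epha2 1.19 above.

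Slit2, a secreted repellent of axons and migrating cells, had its highest level at P10 and was lower in Adult. It had 8.89 and 8.93 at E12, 9.71 and 9.97 at E14, 10.29 and 10.31 at E16, 10.97 and 11.03 at E18, 11.27 and 11.19 at P2, 11.54 and 11.82 at P10, and 9.72 and 9.66 in Adult. The replicates of neighbouring ages did not overlap, and both Adult arrays lay below those of E16. The steps at E14, E16 and E18 were 0.94 ± 0.11, 0.46 ± 0.11 and 0.70 ± 0.11 (adjusted p = 0.000535, 0.0115 and 0.000157), and that of Adult against P10 was -1.99 ± 0.11 (adjusted p = 4.02e-08, 3.97-fold higher at P10). The difference at P2 (0.23 ± 0.11, adjusted p = 0.205) did not pass. The rise at P10 (0.45 ± 0.11, adjusted p = 0.0249) was lost without P10 replicate 2 (0.31) or either P2 array (0.495 and 0.41). The rise at E16 was lost without E14 replicate 1 (0.33) or either E16 array (0.47 and 0.44). On the probe set with the largest variance neither of these rises was called (0.15 at E16 and 0.28 at P10). Of the 3 Slit2 probe sets the other 2 differed in Adult against E12, with -0.89 and 1.15 beside 0.79 on the probe set described. The -0.89 was the only other probe set of any guidance gene called in the opposite direction.

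Robo1 and Robo2, receptors of the Slits, stayed within about 1 log2 unit up to P10 and were far lower in Adult. Robo1 had 8.99 and 9.04 at E12, 9.23 and 9.06 at E14, 8.68 and 8.70 at E16, 8.49 and 8.39 at E18, 8.28 and 8.30 at P2, 8.68 and 9.25 at P10, and 6.74 and 6.66 in Adult. Robo2 had 7.68 and 7.51 at E12, 7.51 and 7.71 at E14, 7.18 and 7.53 at E16, 6.81 and 6.84 at E18, 7.28 and 7.32 at P2, 7.19 and 7.67 at P10, and 5.26 and 5.41 in Adult. For both receptors the Adult arrays lay more than 1 log2 unit below every earlier array. Adult against P10 gave -2.26 ± 0.14 for Robo1 and -2.09 ± 0.15 for Robo2 (adjusted p = 1.1e-07 and 3.47e-07), and Adult against E12 gave -2.32 ± 0.14 and -2.26 ± 0.15 (adjusted p = 6.5e-09 and 1.41e-08). Robo1 and Robo2 are next to each other among protein-coding genes of mouse chromosome 16. Another Robo1 probe set gave -1.71, and a weakly hybridised one gave -0.31.

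Slit3, whose loss causes diaphragmatic hernia in mice, had a dip before birth. It read 8.29 and 8.14 at E12, 8.34 and 7.80 at E14, 7.13 and 7.31 at E16, 7.41 and 7.10 at E18, 7.94 and 7.85 at P2, 8.37 and 8.34 at P10, and 8.48 and 8.45 in Adult. E16 and E18 arrays were below all others. It fell by 0.86 ± 0.15 at E16 (adjusted p = 0.00189), and Adult and E12 differed by 0.25 ± 0.15 (adjusted p = 0.174).

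Ntn4, a laminin-related netrin of basement membranes, had the largest difference of all guidance genes. It had 5.91 and 5.70 at E12, 6.15 and 6.09 at E14, 5.75 and 5.78 at E16, 8.06 and 8.09 at E18, 7.72 and 7.76 at P2, 8.89 and 9.0 at P10, and 10.57 and 10.63 in Adult. Arrays up to E16 were at 6.15 or less and all later ones at 7.72 or more. Adult exceeded E12 by 4.80 ± 0.09 (adjusted p = 4.39e-13, 27.9-fold), with rises of 2.31 ± 0.09 at E18, 1.21 ± 0.09 at P10 and 1.66 ± 0.09 in Adult (adjusted p = 9.85e-10, 6.92e-06 and 4.21e-08). Ntn4 also fell by 0.35 ± 0.09 at E16, before these rises, and by 0.34 ± 0.09 at P2 (adjusted p = 0.0186 and 0.0257). Both falls lost their call without any 1 array of the ages compared, with values of -0.38 to -0.33 at E16 and -0.35 to -0.32 at P2. A second Ntn4 probe set gave 2.72. The printed promoter of Ntn4 holds 4 GC boxes, a pair of them overlapping.

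Ntn1, the classical netrin that attracts through Dcc and repels through Unc5, dipped before birth and rose after it. It had 8.06 and 7.98 at E12, 8.30 and 7.99 at E14, 7.34 and 6.83 at E16, 7.19 and 7.30 at E18, 9.21 and 9.10 at P2, 9.79 and 10.18 at P10, and 10.09 and 10.12 in Adult. All postnatal arrays were above all prenatal ones. The fall at E16 was -1.06 ± 0.16 and the rise at P2 was 1.91 ± 0.16 (adjusted p = 0.000687 and 5.49e-06), and Adult exceeded E12 by 2.08 ± 0.16 (adjusted p = 7.12e-08). The other Ntn1 probe set stayed at or below 5.08 in its time-point means and gave 0.34.

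Unc5c, a repulsive netrin receptor, had 10.63 and 10.22 at E12, 10.24 and 10.11 at E14, 9.16 and 9.41 at E16, 8.61 and 8.67 at E18, 9.28 and 9.23 at P2, 8.98 and 9.12 at P10, and 7.95 and 7.64 in Adult. The Adult arrays lay below all others and those of E18 were the next lowest. Its falls at E16 (-0.89 ± 0.14), E18 (-0.65 ± 0.14) and Adult (-1.26 ± 0.14) passed (adjusted p = 0.000823, 0.00216 and 1.8e-05), as did the difference of -2.63 ± 0.14 between Adult and E12 (adjusted p = 1.45e-09, 6.21-fold higher at E12). In between it rose by 0.62 ± 0.14 at P2 (adjusted p = 0.00907). A second Unc5c probe set gave -4.47. Unc5b, known from endothelial tip cells, differed little between Adult and E12 (-0.02 ± 0.15, adjusted p = 0.908) with a maximum of 8.75 and 8.82 at P10 and 7.60 and 8.04 in Adult, a fall of 0.97 ± 0.15 in the last step (adjusted p = 0.000335).

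**Figure D4:**
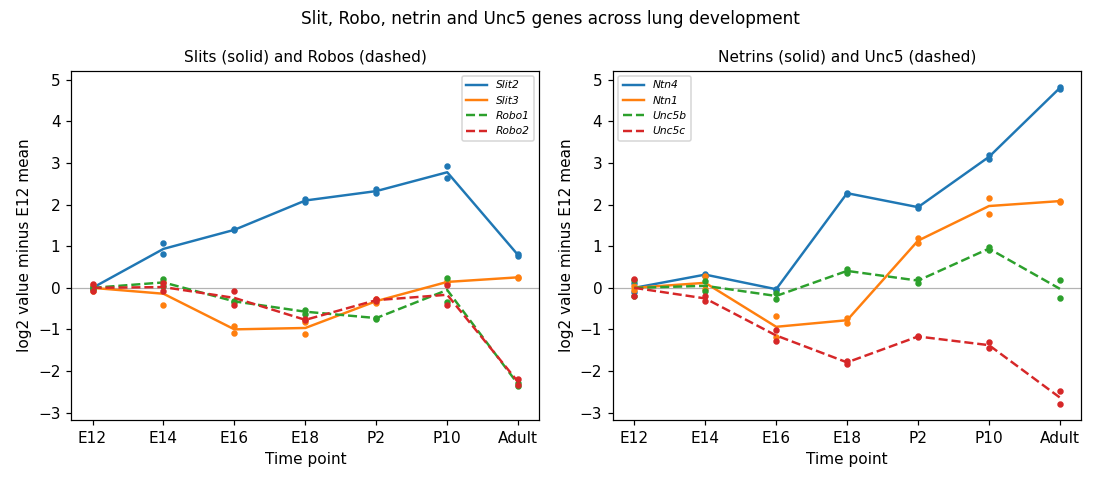
Courses of Slits and Robo receptors (left) and of netrins and Unc5 receptors (right), as log2 value minus the E12 mean of the same gene, with ligands as solid and receptors as dashed lines. Points are single arrays and lines join time-point means. Slit2, Robo1, Robo2, Unc5b and Unc5c drop between P10 and Adult while Ntn4 climbs to 4.80 above E12.

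Changes between neighbouring ages were then counted. At E14 4 of the 36 guidance genes were higher than at E12 and 1 was lower (background over all genes 3.41% higher and 0.918% lower). At E16 5 were higher than at E14 and 12 lower (9.95% and 10.6%). At E18 17 were higher than at E16 and 8 lower (24.8% and 21.6%). After birth 9 were higher at P2 than at E18 and 5 lower (8.58% and 10%). At P10 12 were higher than at P2 and 3 lower (4.82% and 4.37%). In Adult 7 were higher than at P10 and 12 lower (16.8% and 14.9%). Among genes with Max above 7 the shares called in either direction were 6.1%, 29%, 63.8%, 25.6%, 12.7% and 42.5% in the same order. The largest step of a gene, called or not, fell at E14 for 1 gene, E16 for 5, E18 for 10, P2 for 5, P10 for 7 and Adult for 8. Sema3f, Plxnb1, Efnb1, Ephb4 and Efnb2, the gene at E14, had no called step. The same shares over all genes were not computed.

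Several of these counts rested on single arrays. The 5 genes called at E14 became 2 without E12 replicate 1, 2 without E12 replicate 2 and 1 without E14 replicate 2. The 17 called at E16 became 7 without E14 replicate 1, 11 without E14 replicate 2, 7 without E16 replicate 1 (the array with heart muscle signal) and 11 without E16 replicate 2. Heart muscle markers were higher at E16 than at E14 for 8 of 11 genes, and their part in that step was not tested. The 14 called at P2 became 9 without P2 replicate 2. The 15 called at P10 became 6 without P2 replicate 1, 8 without P2 replicate 2 and 7 without P10 replicate 2. At E14 no receptor of 16 passed in limma, although 3 had an unadjusted p under 0.05.

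The last step separated receptors from ligands in their counts. Of 16 receptors 10 (62.5%) were lower in Adult than at P10 and 1 was higher, with a median difference of -0.58. Of 20 ligands 2 were lower and 6 (30%) higher, with a median of 0.12. Over all genes 14.9% were lower and 16.8% higher in this step, and 21.4% and 21.2% among genes with Max above 7. The receptors that were lower were Robo1, Robo2, Unc5c, Plxnc1, Epha7, Unc5b, Epha3, Epha4, Plxnd1 and Ephb3, with differences from -2.26 to -0.32. The ligands that were higher were Ntn4, Sema3g, Sema3d, Sema3c, Sema3b and Sema6a, with differences from 1.66 to 0.27. This split was noticed in the data and the difference between ligands and receptors was not tested.

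Some of these calls were narrow. Plxnd1 (-0.57) was not called without P10 replicate 2 (-0.33) or without Adult replicate 1 (-0.30). Ephb3 (-0.32, adjusted p = 0.0477) was lost in any of 4 arrays left out at P10 and Adult, with values of -0.26 to -0.39. Epha2, the 1 receptor that was higher (0.32, adjusted p = 0.0307), was lost without Adult replicate 1 (0.22) and without either P10 array (0.32 and 0.33). Among the ligands Sema3b (0.40) was lost without P10 replicate 2 (0.32) or Adult replicate 2 (0.30), and Sema6a (0.27, adjusted p = 0.0488) was lost without any of the same 4 arrays (0.21 to 0.34). When a change of more than 1.2 and a level over 7 were required, 4 receptors were lower (Robo1, Robo2, Unc5c and Plxnc1) and 1 ligand was higher (Ntn4). The share of all genes under these thresholds was not computed. In the same step genes of dividing cells were lower for 5 of 5, with means of 6.63 and 6.38 in Adult against 8.73 and 9.03 at P10, and mesenchymal markers were higher for 3 and lower for 5 of 8. Their part in the fall of the receptors was not tested.

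**Figure D5:**
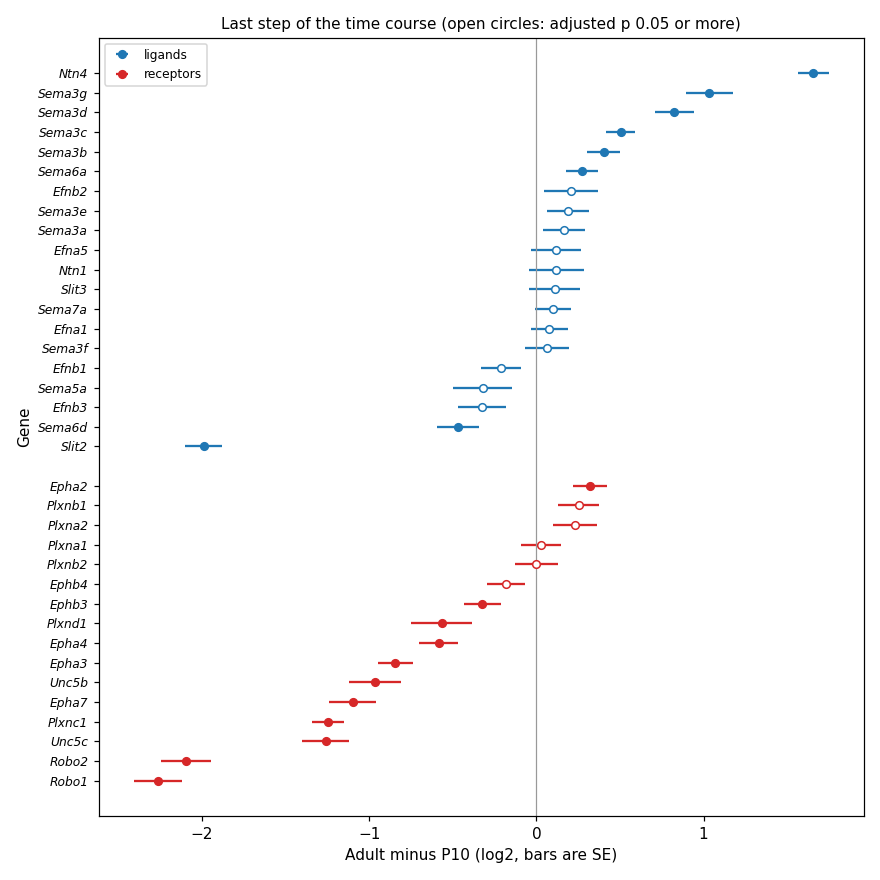
Adult minus P10 difference of each guidance gene with its SE, ligands above and receptors below. Filled points have an adjusted p under 0.05 in limma and open points do not. Of the 16 receptors 10 are filled to the left of 0, with Robo1 at -2.26, and 6 of the 20 ligands are filled to the right of it, with Ntn4 at 1.66.

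Ligands were set beside their textbook receptors in 19 pairs, which were listed with these values known. In Adult against E12 both partners were higher in 4 pairs and both lower in 3. Both rose in Sema6a and Plxna2, Sema6d and Plxna1, Efna1 and Epha2, and Efnb2 and Ephb4. Both fell for Efna5 with Epha3, Epha4 and Epha7. In 4 pairs the ligand was higher and the receptor lower, namely Sema7a with Plxnc1, Slit2 with Robo1 and Robo2, and Ntn1 with Unc5c. The Slit2 pairs depend on the probe set that stood for Slit2, since its other probe sets gave -0.89 and 1.15. Of the other Plxnc1 probe sets 2 were also called lower and 3 were not called. In 2 pairs, Sema3a with Plxna1 and Plxna2, the ligand was lower and the receptor higher, and in the other 6 at least 1 partner was not called. The call of Sema3a was lost in the settings named above.

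The courses of pairs were described by Pearson r over the 7 time-point means, which come from the same arrays and carry no test. The highest r was 0.92 for Efnb1 and Ephb3, neither of which differed between Adult and E12, followed by 0.90 for Efnb2 and Ephb4, 0.80 for Efna1 and Epha2 and 0.78 for Efna5 and Epha7. For Slit2 it was 0.10 with Robo1 and 0.13 with Robo2. The lowest r was -0.42 for Ntn1 and Unc5c. Sema7a and Plxnc1 gave -0.24, with the ligand highest at E18, the age at which its receptor was lowest.

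Other genes of the same pathways were taken from a list of 62 that are not among the 37. In Adult against E12, 24 were higher, 20 lower and 18 not called, with a median difference of 0.17, and 20 were dynamic. The shares of 38.7% higher and 32.3% lower were near those of all genes (35% and 30.2%), of which 26.7% were dynamic. The same background applies to the smaller lists below. The neuropilins Nrp1 and Nrp2, co-receptors of class 3 semaphorins, were both higher. Nrp1 had 12.43 and 12.53 in Adult against 10.26 and 10.31 at E12, a difference of 2.19 ± 0.10 (adjusted p = 3.94e-10), and Nrp2 was 0.66 ± 0.11 higher (adjusted p = 0.000134). Plxna4, a receptor of Sema6a and Sema3a, was 0.67 ± 0.11 higher, whereas Plxna3, a receptor of Sema3f, was 1.33 ± 0.11 lower.

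Of 9 further semaphorins 3 were higher and 2 lower. Sema4a, a class 4 semaphorin of immune cells, had the largest rise (2.40 ± 0.13, adjusted p = 2.42e-09), and Sema4d, the ligand of Plxnb1, was 0.79 ± 0.11 higher. Sema4g, whose highest time-point mean was 6.87, was 0.79 ± 0.11 lower, and Sema4c (-0.42 ± 0.11) was lost without Adult replicate 2 (-0.32). Of 10 further ephrins and Eph receptors 1 was higher and 4 lower. Epha1, an epithelial Eph receptor, was 1.26 ± 0.16 higher, while the GPI-anchored ephrins Efna2 and Efna4 were 2.12 ± 0.15 and 2.14 ± 0.10 lower (adjusted p = 3.05e-08 and 2.7e-10).

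Of 12 further Slit, Robo, netrin and netrin receptor genes 3 were higher and 4 lower. Robo4, the Robo of endothelium, was 1.31 ± 0.10 higher (adjusted p = 4.18e-08), in contrast to Robo1 and Robo2. Neo1, which encodes the netrin receptor neogenin, was 0.88 ± 0.11 lower, and Ntn3, whose time-point means were 4.30 in Adult and 5.74 at E12, was 1.44 ± 0.17 lower. Ntn5 was 0.43 ± 0.15 higher (adjusted p = 0.0205), a call lost without E12 replicate 2 (0.28) or Adult replicate 2 (0.36). Dcc, the attractive netrin receptor, stayed below 7 at both ends, with 6.58 in Adult and 6.71 at E12, and did not pass (adjusted p = 0.471).

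Among 26 genes that carry guidance signals inside the cell 13 were higher and 9 lower. Rnd1, a small GTPase that binds plexins, was 1.99 ± 0.14 higher but stayed below 7, with time-point means of 6.84 in Adult and 4.84 at E12. Mical2, of the flavoprotein family that disassembles actin downstream of semaphorins, was 1.79 ± 0.15 higher. Crmp1, a collapsin response mediator, was 1.45 ± 0.13 lower, and Grb10, an imprinted adaptor that binds Eph receptors, was 3.16 ± 0.08 lower (adjusted p = 2.15e-12).

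More than 1 probe set was present for 27 of the 36 guidance genes, 55 further probe sets in all. In Adult against E12, 41 of them were called in the direction of the probe set that stood for the gene, 1 was called in the opposite direction (Slit2) and 13 were not called. No further probe set was called where the one that stood for the gene was not.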

How the data were processed

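RNA from pooled whole lungs of ICR mice was hybridised to 14 Affymetrix mouse whole-genome arrays, 2 for every one of 7 ages. How many lungs made a pool and whether replicates came from separate pools is not given in the sources used here, so each SE and p measures the spread between these arrays only, which may be technical. The deposited values are log2 expression values that the authors made with Partek 6.4. The methods describe Robust Multichip Average and the deposited notes name GCRMA, and it is not known which one gave these values. Both methods can shrink weak signals, and whether differences of low genes are understated here was not tested.

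After 64 control probe sets were left out, 45037 remained, of which 34945 had 1 symbol in the platform annotation, 932 several and 9160 none. Of these symbols 34741 were matched through Entrez identifiers to RefSeq genes of GRCm38.p6, and 0 were renamed. A gene was represented by its brightest probe set on average over the arrays. In R 4.3.3, limma 3.58.1 fitted a mean per time point to all probe sets (residual df 7, prior df 6.04), and p was Benjamini-Hochberg adjusted over all of them. The median SE of Adult minus E12 was 0.115, and the number of arrays limits the precision. The script was tested on simulated data for Adult minus E12, in which 100 of 100 probe sets with 1.5 added and 100 of 100 with 3 added were found among 45037 (median estimates 1.517 and 3.008), and 7 of 44837 without an addition were called.

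All 36 members found are named. Of the other guidance genes, those called in Adult against E12 with the 2 largest rises and the 2 largest falls per list are named, and Nrp1 and Nrp2 always. Dcc was named after its values were seen. The members, gene lists and receptor pairs were chosen with earlier results of these data known. Alternatives were median centring, quantile normalization, the replicate number as a block, leaving out each array, other choices of probe set, a filter on low values, other moderation of the spread, stricter or looser thresholds, and fits to the 4 arrays compared. Counts of receptors lower and ligands higher in Adult against P10 were added after seeing the data.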

Additional observations from a re-analysis of the deposited data

How the results depend on the processing

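With 2 arrays per time point, counts of steps between neighbouring ages depended most on single arrays. Those of E18 against E16 and of Adult against P10 (25 and 19 with all arrays) also changed with the array left out. Leaving out 1 array at a time gave 1 to 6 guidance genes called in E14 against E12 (5 with all arrays), 7 to 18 in E16 against E14 (17), 9 to 16 in P2 against E18 (14) and 6 to 16 in P10 against P2 (15), with fewer arrays as part of the cause. Over the same settings, guidance genes higher in Adult against E12 numbered 18 to 19, guidance genes lower 10 to 11, dynamic guidance genes 23 to 25, receptors lower in Adult against P10 8 to 10, and ligands higher in that step 4 to 6 (4 without P10 replicate 2 or Adult replicate 2). Without moderation of the spread, 1 gene was called in E14 against E12 and 6 in P10 against P2, and a fit to only the 4 arrays compared called 2 in E14 against E12. When a change of more than 1.2 and a level over 7 were required, the calls were 0 for both the E14 and the E16 step, 5 for that to E18, 3 for those to P2 and to P10, and 6 for Adult against P10, with 4 receptors lower and 1 ligand higher in that last step. For these stricter counts the share of all genes was not computed. By adjusted p alone 36 guidance genes were dynamic. The signs that turned belonged to differences that were not called, except where another choice of probe set was used. Unc5b in Adult against E12 was 0.046 after quantile normalization and ran from -0.24 to 0.20 as arrays were left out, Ephb3 ran from -0.07 to 0.25, and Plxnd1 from -0.0088 to 0.52. On the probe set with the largest variance Sema6d was -0.51 at E18 against E16 and 0.034 in Adult against P10, and with the mean of all probe sets Ntn4 was 0.028 at E16 against E14. The replicate numbers in the labels did not pair the arrays, since deviations from the time-point mean correlated between -0.18 and 0.077 over 21 pairs of time points. With the replicate block 18 guidance genes were higher and 11 lower in Adult against E12, and of 150 single-gene results 142 stayed on the same side of the threshold and 8 no longer passed. Median centring and quantile normalization moved the median difference of all genes by at most 0.05.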
